A study of Homo sapiens with 17 samples.

Results

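The urokinase system genes described here are PLAU, PLAUR, PLAT and SERPINE2, which were chosen by their symbols in the deposited gene table and make up 4 of its 26457 genes. The mRNA-seq libraries came from SW480, a human colon cancer cell line with mutant p53 (mutp53), in derivatives that stably carry a doxycycline-inducible shRNA directed at LacZ (control) or at p53 (mutp53-depleted). Cells of both lines were induced to express the shRNA and were harvested without TNF-α (0 h) or after a 16 h exposure to 12.5 ng/ml TNF-α, which gave 4 groups with 2 biological replicates each, A and B. Each shRNA was carried by its own derivative line, so the effect of the shRNA and any other difference between the lines cannot be told apart, and the sources used here do not state whether a line is a single clone. The ChIP-seq and GRO-seq samples of the series were not analysed here.

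PLAU encodes urokinase (uPA), a secreted serine protease that cleaves the zymogen plasminogen to plasmin, which dissolves fibrin and degrades matrix around migrating cells. PLAUR encodes the urokinase receptor (uPAR), a GPI-anchored protein that holds urokinase on the cell surface. PLAT encodes tissue-type plasminogen activator (tPA), best known for its action on fibrin clots, and SERPINE2 encodes protease nexin 1, a serpin that inhibits urokinase, tPA and thrombin. A further inhibitor of urokinase, PAI-2, is encoded by SERPINB2. In carcinomas, urokinase and its receptor are known for their association with invasion.

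The values that the authors deposited are reads on the exons of each gene after all libraries were scaled to 1 common total, and they are called normalized reads below. Reads on genes numbered from 6108488 to 13809578 per library, and 1 read was worth from 0.67 to 1.515 normalized reads. Of 11 markers of a colon epithelial line, 9 exceeded 3 reads in at least 1 library, with KRT8, KRT18, KRT19 and EPCAM abundant and with CDX1 and CEACAM5 at 0 reads throughout. KRT20 reached at most 8.64 normalized reads and LGR5 at most 5.81. Over the libraries CDH1 ranged from 58.7 to 485, CDX2 from 462 to 1082 and VIL1 from 0 to 545. The 11 markers summed to between 66180 and 70710 normalized reads in control cells and between 52450 and 52480 in mutp53-depleted cells at 0 h. At 16 h they summed to between 56290 and 56380 in control cells and between 42730 and 43900 in mutp53-depleted cells. Of 5 leukocyte genes, PTPRC and MS4A1 had 0 reads in every library, whereas CD68 had from 18.9 to 74.05 normalized reads and CD14 from 4.94 to 34.8. The 5 summed to between 42.4 and 64.4 normalized reads at 0 h, and at 16 h to between 54.1 and 56.1 in control cells and between 79.0 and 81.3 in mutp53-depleted cells. Of 3 endothelial genes, VWF had up to 28.8 normalized reads, and the 3 summed to between 5.69 and 7.26 in control cells and between 17.6 and 28.8 in mutp53-depleted cells over both times. The part of these lists in the results was not tested.

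The control libraries at 16 h differed from each other in 3 of the 4 genes by more than counting error. Replicate A exceeded replicate B by 1.72-fold for PLAU (exact Clopper-Pearson 95% interval 1.51 to 1.97), by 1.37-fold for PLAUR (1.23 to 1.54) and by 1.98-fold for PLAT (1.63 to 2.42), whereas the ratio for SERPINE2 was 1.02 (0.81 to 1.30). For SERPINE2 it was the control libraries at 0 h that differed, by 1.53-fold (1.08 to 2.20). In the mutp53-depleted groups the interval included 1 for each of the 4 genes at both times. These intervals cover counting error only. Among the 275 genes that TNF-α raised in mutp53-depleted cells, 184 were higher in replicate A than in replicate B of the control cells at 16 h, with a median difference of 0.146 on the log2 scale. The same genes were higher in replicate A in 119 cases in control cells at 0 h (median 0.0), and after depletion in 170 cases at 0 h (0.1) and 166 at 16 h (0.058), and over all genes tested the medians lay between −0.012 and 0.016.

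Promoter windows, from 250 bases before to 50 bases after an annotated start site, were matched in RefSeq (GRCh38.p14) for 3 of the 4 genes. The window of PLAUR (chr19:43670120-43670419, minus strand) and that of the downstream start of PLAU (chr10:73910882-73911181, plus strand) are shown because TNF-α raised both genes in both lines. They are written 5′ to 3′ in the direction of transcription, and capitals mark the motifs that were found.
PLAUR: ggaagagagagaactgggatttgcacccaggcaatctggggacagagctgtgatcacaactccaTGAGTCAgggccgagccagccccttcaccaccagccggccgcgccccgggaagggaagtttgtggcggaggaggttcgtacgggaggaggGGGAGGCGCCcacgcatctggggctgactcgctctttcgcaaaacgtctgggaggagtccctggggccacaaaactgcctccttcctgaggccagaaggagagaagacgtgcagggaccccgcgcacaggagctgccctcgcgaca
PLAU: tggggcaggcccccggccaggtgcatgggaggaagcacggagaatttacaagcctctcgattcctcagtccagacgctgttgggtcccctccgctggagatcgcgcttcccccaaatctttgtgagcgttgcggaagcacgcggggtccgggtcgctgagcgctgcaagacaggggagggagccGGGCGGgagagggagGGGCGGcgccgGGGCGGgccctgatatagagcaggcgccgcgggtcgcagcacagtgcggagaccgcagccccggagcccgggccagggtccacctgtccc
The motifs searched, on both strands, were 2 degenerate forms of the κB site, TGANTCA for the AP-1 site, where N is any base, GGGCGG for the GC box and TATAAA for the box upstream of many start sites. The PLAUR window held TGAGTCA, an AP-1 match that begins at position −186 from the start site, and GGGAGGCGCC, a κB-like match that begins at −96. Of the 35116 promoter windows of this length, 7.71% held an AP-1 match, 25.6% the κB-like form found here and 1.91% the other form. The downstream PLAU window held 3 GC boxes, which begin at −66, −51 and −40 and do not overlap, and 45.0% of all windows held at least 1. The window of the upstream PLAU start (chr10:73910360-73910659) held none of these motifs. For SERPINE2, the window at chr2:224031429-224031728 held 1 GC box and that at chr2:224038591-224038890 held 2, with no AP-1 or κB-like match in either.

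TNF-α raised all 4 genes in control cells and 3 of the 4, PLAU, PLAUR and PLAT, in mutp53-depleted cells. By the rule given below, depletion of mutp53 raised PLAT and SERPINE2 before TNF-α, and SERPINE2 alone of the 4 after 16 h. PLAUR at both times and PLAU at 16 h were also higher after depletion. They passed the p threshold of that rule but not its fold threshold. The comparisons used limma on log2(normalized reads + 1) over the 14800 genes that averaged 2.5 normalized reads or more, among them all 4 genes. A change was called where the Benjamini-Hochberg adjusted p was below 0.05 and the fold change reached 2. By this rule 2.97% of all genes tested were higher with TNF-α in control cells and 1.86% after depletion, against 4 of 4 and 3 of 4 urokinase system genes. After depletion 5.89% of all genes tested were higher at 0 h and 5.03% at 16 h, against 2 of 4 and 1 of 4. The interaction, which is the TNF-α response of mutp53-depleted cells less that of control cells, was called at the adjusted p alone, for 2.86% of all genes tested and for 1 of the 4, PLAT. As the 4 genes were chosen with earlier results of these data known, their shares beside those of all genes are descriptive only. The TNF-α comparison in control cells and the depletion comparison at 16 h share the control libraries at 16 h, and other pairs of comparisons likewise have a group in common.

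**Figure D1:**
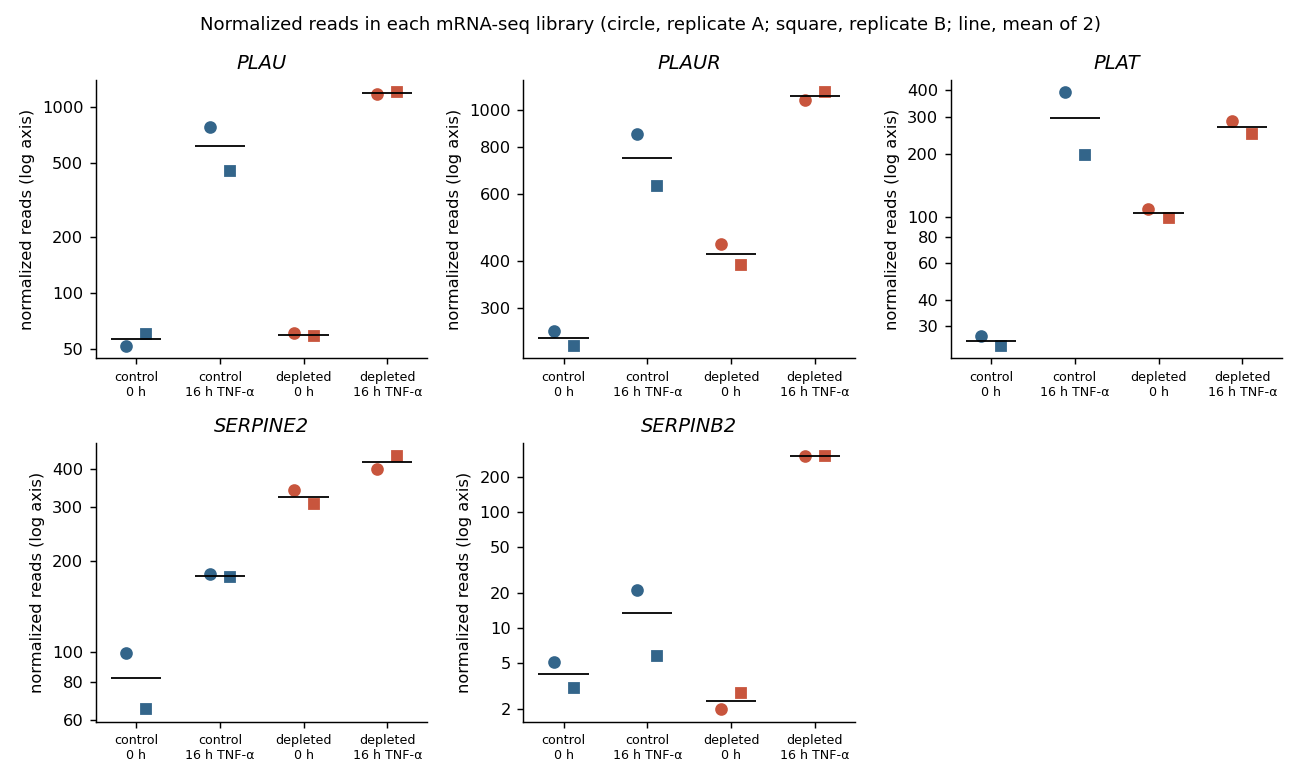
Normalized reads of PLAU, PLAUR, PLAT, SERPINE2 and SERPINB2 in each library, on a log axis, with a circle for replicate A, a square for replicate B and a line at the group mean. PLAU was lowest at 0 h in both lines and highest in mutp53-depleted cells after TNF-α, SERPINE2 was higher in mutp53-depleted than in control cells at both times, and the control libraries at 16 h lie far apart for PLAU and PLAT.

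PLAU, the urokinase gene, lies on chromosome 10 (hg19, 75670862 to 75677258, plus strand, 2650 exon bases as listed). At 0 h it had 52.2 and 60.6 normalized reads in the control libraries and 61.0 and 59.0 in the mutp53-depleted libraries. After 16 h of TNF-α it had 781 and 454 in control cells, compared with 1172 and 1196 in mutp53-depleted cells. The lines overlapped at 0 h, and at 16 h both mutp53-depleted libraries lay above both control libraries. At 16 h the lines did not overlap, in either direction, in 74.5% of all genes tested. In control cells the mean of PLAU (± SD, n = 2) rose from 56.4 ± 5.9 to 618 ± 231 normalized reads with TNF-α, by a log2 fold change of 3.38 (SE 0.18, limma adjusted p = 7.5e-11) that ranked 73 from the highest of the 14800 genes. In mutp53-depleted cells it was raised from 60.0 ± 1.4 to 1184 ± 17, a log2 fold change of 4.28 (SE 0.18, limma adjusted p = 6.7e-12) that ranked 14. Before TNF-α, depletion gave a log2 fold change of 0.09 (95% interval −0.28 to 0.46, limma adjusted p = 0.69).

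At 16 h, PLAU was 1.92-fold higher in mutp53-depleted than in control cells by the ratio of means. Its log2 fold change of 0.99 (95% interval 0.62 to 1.36, limma adjusted p = 0.00013) passed the p threshold, which 51.3% of all genes tested did at any fold, but fell short of the fold threshold. Without replicate A of the control cells at 16 h the difference was 1.38 (limma adjusted p = 4.7e-06) and without replicate A of the mutp53-depleted cells at 16 h it was 1.00 (limma adjusted p = 0.0014), and both passed the fold threshold. The interaction was 0.90 (95% interval 0.37 to 1.43, limma adjusted p = 0.064), which did not pass, and it was 1.29 (limma adjusted p = 0.0024) without that control library. A pseudocount of 5 gave 0.90 with a limma adjusted p of 0.042. The interaction was 0.51 (limma adjusted p = 0.25) without replicate B of the control cells at 16 h, 0.80 by the quasi-likelihood test of edgeR (adjusted p = 0.25) and 0.85 by DESeq2 (adjusted p = 0.66), none of which passed.

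PLAUR, the receptor gene, lies on chromosome 19 (hg19, 44152723 to 44174498, minus strand, 1544 exon bases). Before TNF-α the control libraries had 261 and 238 normalized reads and the mutp53-depleted libraries 443 and 388. With TNF-α these became 868 and 632, and 1065 and 1116. At each time both mutp53-depleted libraries lay above both control libraries. The groups did not overlap in 77.4% of all genes tested at 0 h and in 74.5% at 16 h. TNF-α raised PLAUR by 1.57 on the log2 scale in control cells (SE 0.12, limma adjusted p = 1.1e-08) and by 1.39 in mutp53-depleted cells (SE 0.12, limma adjusted p = 7e-08). The difference between these responses was −0.18 with a 95% interval of −0.53 to 0.18 (limma adjusted p = 0.73), and it was 0.05 without replicate A of the control cells at 16 h. Depletion gave log2 fold changes of 0.73 at 0 h (SE 0.12, limma adjusted p = 4.5e-05) and 0.56 at 16 h (SE 0.12, limma adjusted p = 0.0007), ratios of means of 1.67 and 1.45 that fell short of the fold threshold. The value at 16 h was 0.79 without replicate A of the control cells at 16 h (limma adjusted p = 4.5e-05) and 0.33 without replicate B (limma adjusted p = 0.022). At 0 h, 52.5% of all genes tested had an adjusted p this side of the threshold at any fold.

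PLAT, the gene of tissue-type plasminogen activator, lies on chromosome 8 (hg19, 42032236 to 42065194, minus strand, 3157 exon bases). It had 26.8 and 24.2 normalized reads in control cells at 0 h, compared with 109 and 98.7 in mutp53-depleted cells. At 16 h it had 392 and 198 in control cells and 287 and 247 in mutp53-depleted cells. The lines were separate at 0 h, as they were in 77.4% of all genes tested, whereas at 16 h both mutp53-depleted libraries lay between the control libraries. Depletion raised PLAT 4.07-fold at 0 h by the ratio of means, a log2 fold change of 1.98 (SE 0.23, limma adjusted p = 8.3e-07). At 16 h the log2 fold change was −0.06 with a 95% interval of −0.54 to 0.41 (limma adjusted p = 0.83). This value took the opposite sign without replicate A of the control cells at 16 h (0.43) and without replicate B of the mutp53-depleted cells at 16 h (0.04). Without replicate B of the control cells at 16 h it was −0.56, so it depended on which control library was kept.

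TNF-α raised PLAT in control cells by 3.40 on the log2 scale (SE 0.23, limma adjusted p = 2e-09), next to PLAU in the order of all genes, at rank 72. In mutp53-depleted cells, which started from a higher level, it was raised by 1.35 (SE 0.23, limma adjusted p = 0.00021). The responses of the lines differed by −2.05 (95% interval −2.73 to −1.37, limma adjusted p = 0.0011), at rank 97 from the lowest of all interactions. Over the alternatives the interaction of PLAT lay between −2.54 and −1.56, with adjusted p-values between 5.7e-05 and 0.014, so the call was kept in each of them.

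SERPINE2, the protease nexin 1 gene, lies on chromosome 2 (hg19, 224839765 to 224904036, minus strand, 2245 exon bases). Control cells had 99.4 and 65.1 normalized reads at 0 h and 181 and 176 at 16 h. After depletion the libraries had 342 and 307 at 0 h and 402 and 443 at 16 h. The 4 groups did not overlap, and control cells after TNF-α remained below mutp53-depleted cells without it. Between the lines, the groups did not overlap in 77.4% of all genes tested at 0 h and in 74.5% at 16 h. Depletion raised SERPINE2 from 82.3 ± 24.2 to 325 ± 25 normalized reads (mean ± SD, n = 2) at 0 h, a log2 fold change of 1.997 (SE 0.16, limma adjusted p = 7.2e-09). At 16 h it was raised by 1.24 (SE 0.16, limma adjusted p = 3e-06). A list of fibroblast genes summed to between 38.5 and 39.4 normalized reads in control cells and between 158 and 176 in mutp53-depleted cells at 0 h, and to between 28.5 and 31.9 and between 56.2 and 59.2 at 16 h. Its part in the result was not tested. Of these genes, COL3A1 and DCN had 0 reads in every library and COL1A2 reached at most 0.73 normalized reads, and the sums came from COL1A1 and PDGFRB.

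TNF-α raised SERPINE2 in control cells by 1.14 on the log2 scale (SE 0.16, limma adjusted p = 2.1e-05). Without replicate B of the control cells at 0 h the change was 0.84 (limma adjusted p = 0.0005) and fell short of the fold threshold. In mutp53-depleted cells its log2 fold change was 0.38 (95% interval 0.05 to 0.71, limma adjusted p = 0.086). The interaction was −0.76 (95% interval −1.23 to −0.29, limma adjusted p = 0.081) and passed the threshold at −1.06 (limma adjusted p = 0.0059) without replicate A of the control cells at 0 h. In these bulk libraries, fewer cells that express a gene and less RNA per cell cannot be told apart, for SERPINE2 as for the other genes.

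**Figure D2:**
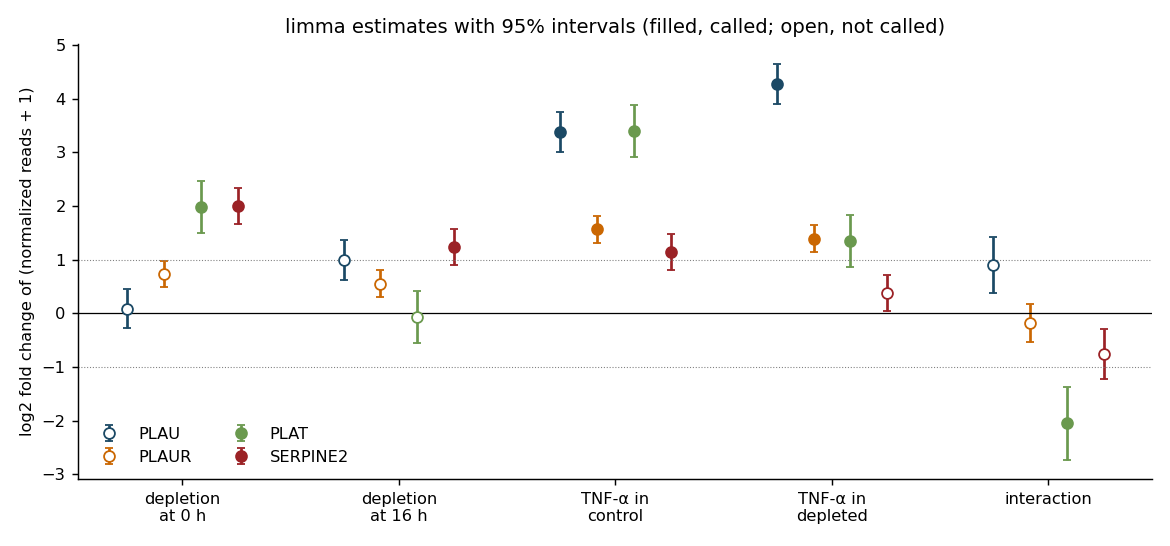
Log2 fold changes of PLAU, PLAUR, PLAT and SERPINE2 in the 5 comparisons, with 95% limma intervals. Filled symbols mark called changes, which were 4 for TNF-α in control cells, 3 for TNF-α in mutp53-depleted cells, 2 for depletion at 0 h, 1 for depletion at 16 h and 1, PLAT at −2.05, for the interaction.

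Changes between the lines that are shared by neighbouring genes on a chromosome were small around all 4 genes. The median log2 fold change after depletion of the 51 tested genes centred on each was 0.036 at 0 h and −0.002 at 16 h for PLAU, and 0.004 and −0.048 for PLAT. It was 0.131 and 0.133 for PLAUR, and 0.144 and 0.029 for SERPINE2.

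To compare the genes with each other, normalized reads were divided by the listed exon length in kb. On this scale PLAUR was the highest of the 4 in every group, at 161 ± 10 and 486 ± 108 (mean ± SD, n = 2) in control cells at 0 h and 16 h and at 269 ± 25 and 706 ± 23 in mutp53-depleted cells. Next in control cells at 0 h came SERPINE2 at 36.7 ± 10.8, PLAU at 21.3 ± 2.2 and PLAT at 8.09 ± 0.58. In mutp53-depleted cells at 0 h, PLAT at 32.9 ± 2.4 lay above PLAU at 22.6 ± 0.5. With TNF-α, PLAU rose to the second place in both lines, at 233 ± 87 in control cells and at 447 ± 6 after depletion. PLAT at 93.3 ± 43.4 and SERPINE2 at 79.6 ± 1.4 in control cells at 16 h did not differ beyond their spread.

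SERPINB2, an inhibitor gene outside the 4, was raised by TNF-α in mutp53-depleted cells, and its response differed between the lines. In the control libraries SERPINB2 had 5.08 and 3.03 normalized reads at 0 h and 21.3 and 5.69 at 16 h, and in the mutp53-depleted libraries at 0 h it had 2.01 and 2.74. It then reached 302 and 300 in mutp53-depleted cells at 16 h, which rested on 603 reads against 5 at 0 h and gave a ratio of 134 (exact 95% counting interval 57.0 to 413). Its interaction of 5.19 (SE 0.68, limma adjusted p = 0.00018) was the highest of all genes tested.

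Ratios of genes within a library do not depend on the scaling of that library, and the ratios that follow were chosen after the values were seen and carry no test. PLAU per SERPINE2, the protease over its inhibitor and both per kb, was 0.445 and 0.788 in the control libraries and 0.151 and 0.163 in the mutp53-depleted libraries at 0 h. After TNF-α it was 3.66 and 2.18 in control cells, a range that held both values of mutp53-depleted cells, 2.47 and 2.29. PLAT per SERPINE2 was 0.192 and 0.265 in the control libraries and 0.227 and 0.229 in the mutp53-depleted libraries at 0 h, and after TNF-α it was 1.54 and 0.797 in the former and 0.508 and 0.396 in the latter. PLAU per PLAT was 2.32 and 2.98 in control cells at 0 h and 2.38 and 2.73 at 16 h, so that neither time point lay wholly above the other. In mutp53-depleted cells the same ratio was 0.665 and 0.712 at 0 h and 4.87 and 5.77 at 16 h. PLAT thus exceeded PLAU per kb in mutp53-depleted cells at 0 h alone.

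**Figure D3:**
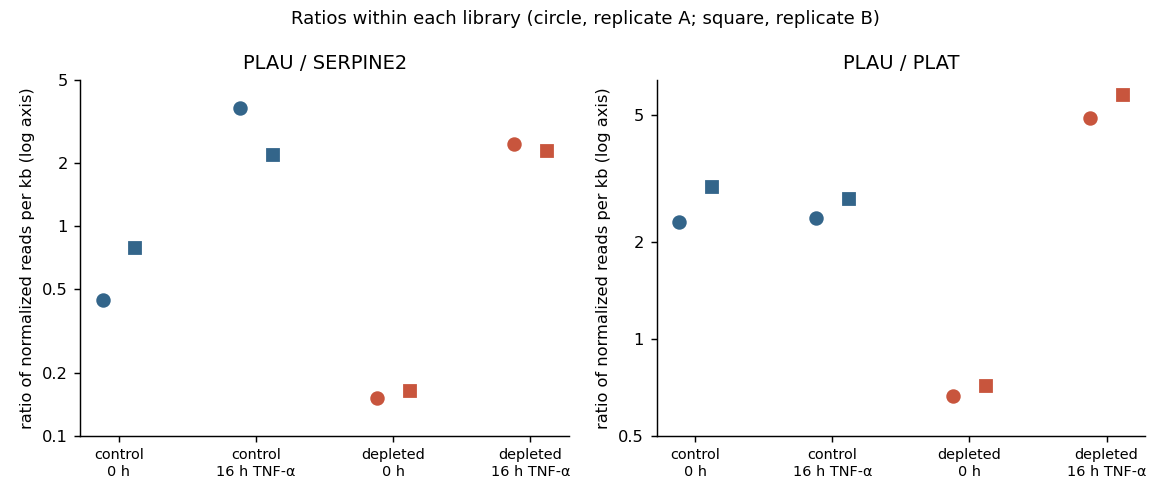
Ratios of normalized reads per kb within each library for PLAU over SERPINE2 and PLAU over PLAT, on log axes, with a circle for replicate A and a square for replicate B. Both ratios were lowest in mutp53-depleted cells at 0 h, at 0.151 and 0.163 and at 0.665 and 0.712, and the PLAU to PLAT ratio was highest in mutp53-depleted cells at 16 h.

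PLAU per PLAUR, the ligand over its receptor, was 0.117 and 0.148 in control cells and 0.0802 and 0.0885 in mutp53-depleted cells at 0 h, and it was 0.524 and 0.419, and 0.641 and 0.625, at 16 h. Messenger RNA levels of this kind do not measure the amount or the activity of the proteins.

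Around these genes, 62 others were grouped by role, of which 39 were tested. Among 10 further activators and zymogens, PLG (plasminogen itself), HGF and LPA had 0 reads in every library, and 4 were tested. At both times 3 of these 4 were lower in mutp53-depleted cells and 0 were higher, with medians of −1.52 and −1.46 on the log2 scale against 0.028 and −0.007 over all genes tested, 9.55% and 10.2% of which were called lower. They were ST14 (matriptase, a membrane protease that can activate pro-urokinase), F12 (coagulation factor XII) and MST1 (a kringle protein related to plasminogen and HGF). ST14 fell from 3868 to 1080 normalized reads at 0 h, a log2 fold change of −1.84 (SE 0.08, limma adjusted p = 4.7e-12), and from 3102 to 792 at 16 h. The call of MST1 at 16 h was lost without replicate B of the mutp53-depleted cells at 16 h (−1.17, limma adjusted p = 0.059) and under DESeq2 (adjusted p = 0.055). None of the 4 was called with TNF-α in either line.

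Of 13 further inhibitors, SERPINB2 among them, 9 were tested. At 0 h 4 were lower and 0 higher in mutp53-depleted cells, namely A2M (a general protease trap), SERPINI1 (neuroserpin, an inhibitor of tPA) and SPINT1 and SPINT2, which inhibit matriptase and related membrane proteases. The first 2 had few reads at 0 h. A2M had 35 in control and 5 in mutp53-depleted cells, and SERPINI1 had 17 and 12 in the mutp53-depleted libraries. At 16 h SERPINF2 (the plasmin inhibitor α2-antiplasmin), SPINT1 and SPINT2 were lower and SERPINB2 was higher. SPINT1 fell by 1.25 on the log2 scale at 0 h (SE 0.10, limma adjusted p = 4.9e-09) and by 1.87 at 16 h (SE 0.10, limma adjusted p = 2.9e-11), and SPINT2 fell by 1.08 and 1.25. TNF-α raised SERPINB8 and lowered A2M and SERPINI1 in control cells, and it raised SERPINB2 and SERPINB8 in mutp53-depleted cells. The call of A2M with TNF-α, which rested on 35 reads at 0 h and 7 at 16 h, was lost under 6 of 17 alternatives. The call of SERPINF2 after depletion at 16 h was lost under 4 of 18. SERPINB8 fell short of the fold threshold in control cells without replicate A at 0 h (0.99) and in mutp53-depleted cells without replicate B at 0 h (0.98). The median of the 9 was −0.562 at 0 h and −0.506 at 16 h after depletion, and −0.026 and −0.282 with TNF-α in control and in mutp53-depleted cells. Over all genes tested the same medians were 0.028, −0.007, −0.047 and −0.063. After depletion 9.55% of all genes tested were called lower and 5.89% higher at 0 h, and 10.2% and 5.03% at 16 h.

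Of 23 receptors, docking sites and clearance receptors of the system, 19 were tested, and FPR1 and FPR2 had 0 reads. TNF-α raised 5 and lowered 1 in control cells, and it raised 4 and lowered 2 in mutp53-depleted cells, with medians of 0.243 and 0.187 against −0.047 and −0.063 over all genes tested. Of all genes tested, 2.97% were called higher and 4.27% lower in control cells, and 1.86% and 4.5% in mutp53-depleted cells. MET, the receptor of HGF, was raised by 1.33 (SE 0.10, limma adjusted p = 1.4e-08) and 1.68 (SE 0.10, limma adjusted p = 1e-09) on the log2 scale, and F2RL1, a receptor that serine proteases activate by cleavage, by 1.14 and 1.00. The call of F2RL1 in control cells was lost without replicate A at 16 h (0.98), and that in mutp53-depleted cells under a pseudocount of 5 (0.98) and without replicate A at 0 h or at 16 h (0.88 each), all short of the fold threshold. VLDLR, which takes up complexes of urokinase and its inhibitors together with uPAR, fell by 1.75 in control cells (SE 0.13, limma adjusted p = 9.6e-09) and by 1.66 in mutp53-depleted cells (SE 0.13, limma adjusted p = 2.6e-08). LRP1, a clearance receptor of the same family, fell by 1.13 in mutp53-depleted cells (limma adjusted p = 0.00016), and its interaction of −0.56 did not pass (limma adjusted p = 0.36). ITGAM, an integrin subunit that partners uPAR, had 0 reads in control cells at 0 h and 31 at 16 h which is at least 5.0-fold higher against a floor of 3 reads in each library. In mutp53-depleted cells it had 3 reads and 54, a ratio of 19.96 (exact 95% counting interval 6.48 to 99.8).

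SRPX2, a ligand of uPAR, had 1 read in control cells at 0 h and 15 at 16 h, a ratio of 17.6 (exact 95% counting interval 2.71 to 741), and its call was lost under 3 of 17 alternatives. The log2 fold change of SRPX2 in mutp53-depleted cells was 1.69 (limma adjusted p = 0.074). Neither this nor its interaction of −0.86 (limma adjusted p = 0.38) passed. PLGRKT, a plasminogen receptor, was raised by 1.05 with TNF-α in mutp53-depleted cells (limma adjusted p = 0.007). This call was lost under a pseudocount of 5 (0.94) and without replicate B of these cells at 0 h (0.86). The interaction of PLGRKT, 1.13, did not pass (limma adjusted p = 0.14). EGFR, a receptor kinase that acts with uPAR in signalling, was the 1 gene of this group that was called after depletion. Of all genes tested, 9.55% were called lower and 5.89% higher after depletion at 0 h, and 10.2% and 5.03% at 16 h. EGFR fell by 1.33 on the log2 scale at 0 h (limma adjusted p = 1.3e-09) and by 1.73 at 16 h (limma adjusted p = 4.1e-11). These values became −0.50 and −0.86, short of the fold threshold, once the median of its neighbouring genes was removed. TNF-α raised EGFR in control cells by 1.04 on the log2 scale (limma adjusted p = 8.2e-08), a call that was lost without replicate A of the control cells at either time. The change of EGFR in mutp53-depleted cells was 0.64 (limma adjusted p = 3.8e-05), short of the fold threshold. Its interaction of −0.40 did not pass (limma adjusted p = 0.13).

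Of 16 relatives of PLAUR that carry the same Ly6/uPAR domain, 7 were tested, and LYPD2, TEX101, SLURP1 and SPACA4 had 0 reads. None of the 7 was called with TNF-α in either line or after depletion at 16 h. At 0 h LYPD6B rose by 1.26 on the log2 scale after depletion (limma adjusted p = 0.00028) and LYPD6 by 1.06 (limma adjusted p = 0.023), the latter lost under 9 of 18 alternatives, while LY6E fell by 1.28 (limma adjusted p = 7.4e-10). The fall of LY6E was −0.94 once the median of its neighbouring genes was removed. Over the 39 genes together, TNF-α raised 6 and lowered 3 in control cells and raised 6 and lowered 2 in mutp53-depleted cells, while depletion raised 2 and lowered 9 at 0 h and raised 1 and lowered 7 at 16 h. Among all genes tested, 2.97% and 1.86% were called higher with TNF-α in control and in mutp53-depleted cells, and 4.27% and 4.5% were called lower. For depletion these shares were 5.89% higher and 9.55% lower at 0 h, and 5.03% and 10.2% at 16 h.

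**Figure D4:**
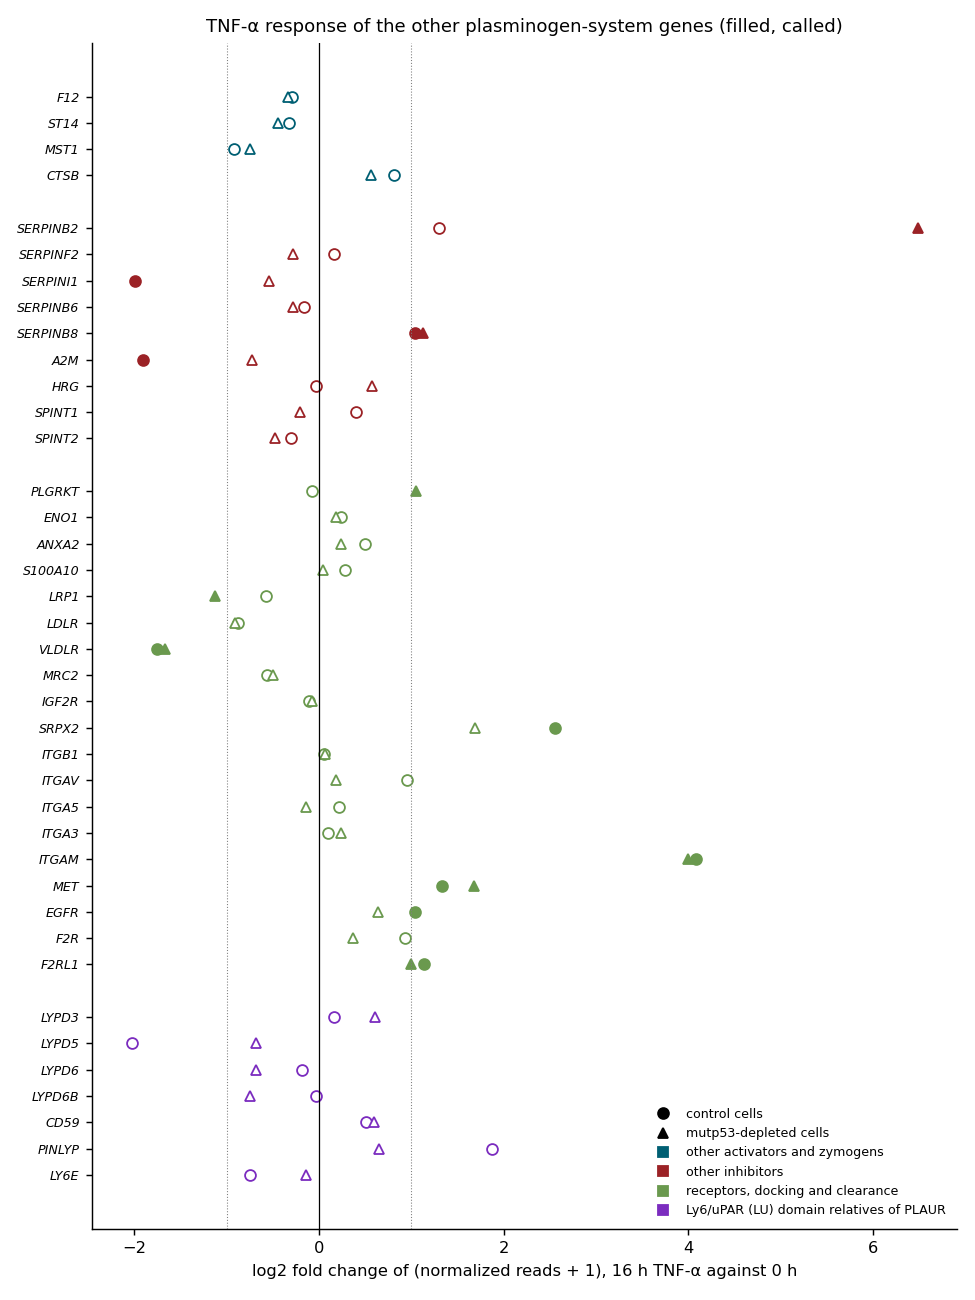
Log2 fold change with TNF-α of the 39 tested genes of the 4 lists in control cells (circles) and mutp53-depleted cells (triangles), with filled symbols for called changes. SERPINB2 in mutp53-depleted cells lies farthest to the right at 6.49, ITGAM and MET are raised in both lines, and VLDLR is lowered in both.

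The genes whose pattern over the 8 libraries came nearest to each of the 4 were found among the other 14799 genes by the root mean square difference of log2 values after each gene was centred on its own mean. For PLAUR these were MAST4 at a distance of 0.093, DUSP5 at 0.168 and FOSL1 at 0.187. MAST4 had 118 and 121 normalized reads at 0 h and 399 and 320 at 16 h in control cells, and 181 and 181 and then 501 and 521 after depletion, which follows the order of PLAUR, the gap between the control libraries at 16 h included. For SERPINE2 the nearest were EMP1 at 0.179, FENDRR at 0.207 and FOXF1 at 0.211. EMP1 had 1356 and 1336 normalized reads at 0 h and 2631 and 2510 at 16 h in control cells, and 5003 and 5219 and then 6022 and 6203 after depletion. FENDRR and FOXF1 both lie on chromosome 16.

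For PLAT the nearest were IL34 at 0.307, SAA1 at 0.318 and VSTM1 at 0.321, farther than those of PLAUR and SERPINE2. SAA1, an acute-phase protein gene, had 51.5 and 71.2 normalized reads at 0 h and 796 and 718 at 16 h in control cells, and 259 and 214 and then 783 and 824 after depletion. Like PLAT, SAA1 was higher after depletion at 0 h. At 16 h SAA1 lay within 718 to 824 in both lines, whereas the control libraries lay farther apart for PLAT, at 392 and 198. For PLAU the nearest were CLEC1A at 0.392, IL7R at 0.423 and SLAMF8 at 0.460, which had at most 0.67 normalized reads in any library at 0 h and between 11.7 and 31.0 at 16 h. The distances for PLAU were therefore the largest of the 4 and rested on genes with few reads. IL34, near PLAT, and FENDRR, near SERPINE2, also had few reads, with at most 16.4 and 13.6 normalized reads in any library.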

How the data were processed

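Strand-specific poly(A) libraries of SW480 cells were sequenced, and the authors mapped the reads with STAR and compared groups with edgeR, per the study's methods. Per the file headers, exon reads per gene were counted with analyzeRepeats.pl, a HOMER program. The authors deposited signal values, which are read numbers times a factor that gives each library the same total. The table's header and coordinates give hg19, whereas the labels give hg38, and coordinates of genes are printed as in the table. Reads were recovered by division by the factor, within 0.0051 normalized reads for every value. The log2 fold changes and the p-value columns that the authors deposited belong to their own comparisons of the groups and were not used. The replicate letters come from the column names alone, each GEO sample holding 2 columns, and the depth was 6108488 to 13809578 reads on genes.

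With R 4.3.3, limma 3.58.1 (trended eBayes) was fitted to log2(value + 1) of the 8 libraries in 4 groups, for the 14800 genes averaging 2.5 or more. The fold changes are on this scale, which understates the change of genes with few reads. Adjusted p-values are Benjamini-Hochberg over all genes tested. They and the SEs rest on the spread between 2 replicates per group, pooled over groups. The eBayes step draws this spread toward a trend fitted over all genes tested, so it is not the spread of the named gene alone. Alternatives were median-ratio scaling, pseudocounts of 0.1 and 5, no filter, a minimum mean of 10, the replicate letter as a block, edgeR 4.0.16 (quasi-likelihood and exact tests with TMM) and DESeq2 1.42.0 on recovered reads, removal of the median of the 51 neighbouring genes, and leaving out each library. The procedure was tested on simulated data. Some results are not reported here. The 4 genes and the gene lists were chosen with earlier results of these data known. Named genes were the 4 members, up to 8 called genes per list and the 3 nearest patterns for each member. The genes at 0 reads in all libraries and ITGAV were named after their values were seen, as full results of a count. Promoters came from RefSeq (GRCh38.p14), which gave no entry for PLAT. Tables and plots used scipy 1.17.1, pandas 2.3.3, matplotlib 3.10.9 and numpy 2.4.6 under Python 3.11.15.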

Additional observations from a re-analysis of the deposited data

Results flagged for a closer look

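The TNF-α response differed between the lines for PLAT, with an interaction of −2.05 on the log2 scale (limma adjusted p = 0.0011). Of the 39 further genes of the system that were tested, it differed for 4, and 2.86% of all genes tested had such a difference. SERPINB2 had an interaction of 5.19 (limma adjusted p = 0.00018), ITGAV, an integrin subunit, of −0.76 (limma adjusted p = 0.0029), SPINT1 of −0.61 (limma adjusted p = 0.016) and LY6E of 0.61 (limma adjusted p = 0.0066). With TNF-α, mean normalized reads of ITGAV went from 1324 to 2560 in control cells and from 1280 to 1466 after depletion, and those of LY6E from 2128 to 1270 and from 876 to 794. The interaction of SPINT1 lost its call under 6 of 17 alternatives, among them no filter and leaving out replicate A of the control cells at 16 h, and that of LY6E under 1, leaving out replicate B of the mutp53-depleted cells at 0 h (0.59, limma adjusted p = 0.051).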

How the results depend on the processing

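For the 4 genes, 20 effects were computed under up to 18 alternatives, and 344 of 356 values kept their direction and their side of the threshold, with 13 effects unchanged throughout. A pseudocount of 5 gave the PLAU interaction (0.90) a limma adjusted p of 0.042. With the replicate letter as a block the limma adjusted p was 0.03 for the PLAU interaction (0.90) and 0.041 for that of SERPINE2 (−0.76), and no other call of the 4 changed. The deviations of same-lettered replicates correlated between groups by −0.077 to 0.216 over 11023 genes, so the letters were not taken to pair the libraries. When libraries were left out in turn, PLAU after depletion lay between −0.02 and 0.20 at 0 h (−0.02 without replicate A of the control cells at 0 h) and between 0.60 and 1.38 at 16 h, and its interaction between 0.51 and 1.29. PLAT after depletion at 16 h lay between −0.56 and 0.43. It was −0.56 without replicate B and 0.43 without replicate A of the control cells at 16 h. Without replicate B of the mutp53-depleted cells at 16 h it was 0.04. The PLAUR interaction lay between −0.41 and 0.05 (0.05 without replicate A of the control cells at 16 h). SERPINE2 with TNF-α in control cells lay between 0.84 and 1.44 and its interaction between −1.06 and −0.46. The count of genes with an interaction was 424 and lay between 208 and 421, with 278 and 233 without replicate A of the control and of the mutp53-depleted cells at 0 h, and 208 and 265 without replicate B of the mutp53-depleted cells at 0 h and at 16 h. The cause of these shifts was not tested. A group left with 1 library was assumed to vary like the others, and the edgeR exact test gave no interaction. Of 40 calls of the further genes, 24 were kept under every alternative. Genes with few reads, such as A2M and SRPX2, are limited by depth.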
